A study of Mus musculus with 9 samples.

Results

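Inhibitory signalling by gamma-aminobutyric acid (GABA) was followed through 7 genes in RNA bound to ribosomes, taken from neurons of the mouse medial prefrontal cortex (mPFC). They were Gad1 and Gad2, which make GABA, Slc32a1, which loads it into vesicles, Gabbr1 and Gabbr2, the subunits of the GABA-B receptor, and Gphn and Nlgn2, which hold inhibitory postsynapses together. The genes were taken by symbol from the deposited transcript tables: 32 of 115220 listed transcripts and 7 of 47593 gene symbols belonged to them. A gene's level is the sum of the values of its transcripts in FPKM (fragments per kilobase of transcript, scaled to the mapped fragments of the library), a unit corrected for length, so levels of different genes can be set side by side.

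The study compared sleep, enforced wake, and enforced wake under extra Fxr1, a relative of the fragile X protein FMRP that binds RNA and acts on its translation. Adult C57BL/6 mice provided 9 libraries in 3 groups of 3. In the first group GFP-Fxr1, a fusion with green fluorescent protein, was overexpressed in the mPFC and the mice were subjected to enforced wake (called enforced wake with Fxr1 here). In the second group GFP alone was overexpressed under enforced wake, and in the third GFP alone was overexpressed and the mice slept. All groups therefore carried an overexpressed GFP or GFP fusion. The RNA came from RiboTag immunoprecipitation, where antibodies to a tag on a ribosomal protein recover ribosomes along with the RNA they hold. The labels name mPFC neurons as the source and do not give the promoter or Cre line behind the tag, the length of the wake, or whether libraries of a group came from separate animals. The p-values therefore measure only the spread between these libraries, which may be technical.

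GABA is made from glutamate by glutamate decarboxylases. Gad1 encodes the larger isoform, which supplies most of the GABA of the cell and the synapse, and Gad2 the smaller one, which is concentrated at nerve endings and depends more on its cofactor. The vesicular transporter Slc32a1, also called VGAT, fills synaptic vesicles with GABA or glycine. GABA-B receptors are pairs of Gabbr1, which binds GABA, and Gabbr2, which couples to G proteins. They act on both sides of synapses, on excitatory neurons as well as inhibitory ones. Gephyrin (Gphn) forms the lattice that anchors GABA-A and glycine receptors, and neuroligin 2 (Nlgn2) is the adhesion protein of inhibitory postsynapses that recruits it. In cortex the Gad genes and Slc32a1 mark inhibitory interneurons, while the receptor subunits, gephyrin and neuroligin 2 are made by most neurons.

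Some results below turn on which transcript of a gene the authors' estimates chose, and others are set beside the base composition of transcripts, so sequences that show both are given here from the GENCODE M21 transcripts of GRCm38. Gabbr1 (chromosome 17, 37045966 to 37075067, plus strand) has a start upstream and another inside the gene. The long form, commonly called GABA-B1a, carries sushi domains at its N-terminus, and the shorter form, GABA-B1b, replaces them with a short stretch of its own. The first 60 coding bases of both forms differ from the start codon (capitals) onward.
Gabbr1 ENSMUST00000025338, 960 codons: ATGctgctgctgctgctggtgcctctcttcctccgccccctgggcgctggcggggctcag
Gabbr1 ENSMUST00000172792, 844 codons: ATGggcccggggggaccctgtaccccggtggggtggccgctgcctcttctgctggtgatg
Of the Gabbr1 transcripts with a mean of at least 1 FPKM, 4 began with the sequence of the 960-codon form and 2 with that of the 844-codon form.

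Gad1 (chromosome 2, 70553072 to 70602014, plus strand) has a full coding transcript, ENSMUST00000094934, of 17 exons and 593 codons. A second transcript, ENSMUST00000140478, is annotated as a processed transcript without a coding sequence. It has 2996 bases, of which 2919 also lie in exons of the coding transcript. The remaining 77 bases (chr2:70566377-70566453, GRCm38, plus strand) lie at its 5′ end and are its only exonic bases outside the coding transcript. The coding transcript, of 3355 bases, also has exonic bases that ENSMUST00000140478 lacks.
Gad1 ENSMUST00000140478, own bases: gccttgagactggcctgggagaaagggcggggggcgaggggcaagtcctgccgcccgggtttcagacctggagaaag

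The 7 genes also span a wide range of base composition. GC content of the longest transcript was 61.9% for Slc32a1 and 60.7% for Nlgn2, 56.0% for Gabbr2, 53.0% for Gabbr1, 48.1% for Gphn, 47.3% for Gad1 and 44.1% for Gad2. The 20 codons in the middle of the coding sequence are written out for Slc32a1 and Gphn, with G or C at the last codon position in capitals.
Slc32a1 ENSMUST00000045738, codons 254 to 273: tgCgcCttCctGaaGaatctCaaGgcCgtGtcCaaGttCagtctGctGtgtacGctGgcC
Gphn ENSMUST00000110388, codons 377 to 396: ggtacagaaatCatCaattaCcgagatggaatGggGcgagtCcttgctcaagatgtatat
In Slc32a1 17 of these 20 codons ended in G or C, and in Gphn 6 did. Over the whole coding sequence the share was 84.6% in Slc32a1 and 40.0% in Gphn.

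Depth, estimated from the smallest steps of the values, was 2.99e7 to 3.76e7 fragments per library. Fxr1, the overexpressed gene, had 91.1, 67.7 and 71.8 FPKM in enforced wake with Fxr1, 34.8, 33.9 and 31.1 FPKM in enforced wake and 31.7, 34.8 and 31.0 FPKM in sleep, as the labels say. The first library of enforced wake with Fxr1 stood apart: on the first principal component, with 60.2% of the variance, it lay at -57.7 and the other libraries between -10.8 and 27.7. Differences between groups followed GC content over all genes. Across 5 equal groups of genes from low to high GC content, the median log2 difference of enforced wake minus sleep was -0.17, -0.10, -0.01, 0.10 and 0.28, and that of enforced wake with Fxr1 minus enforced wake was 0.29, 0.13, -0.04, -0.29 and -0.62. Results below are therefore also given, where named, after the trend of the deviations with GC content and transcript length had been subtracted in every library (GC and length trend removed). Both comparisons share the enforced wake libraries.

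**Figure D1:**
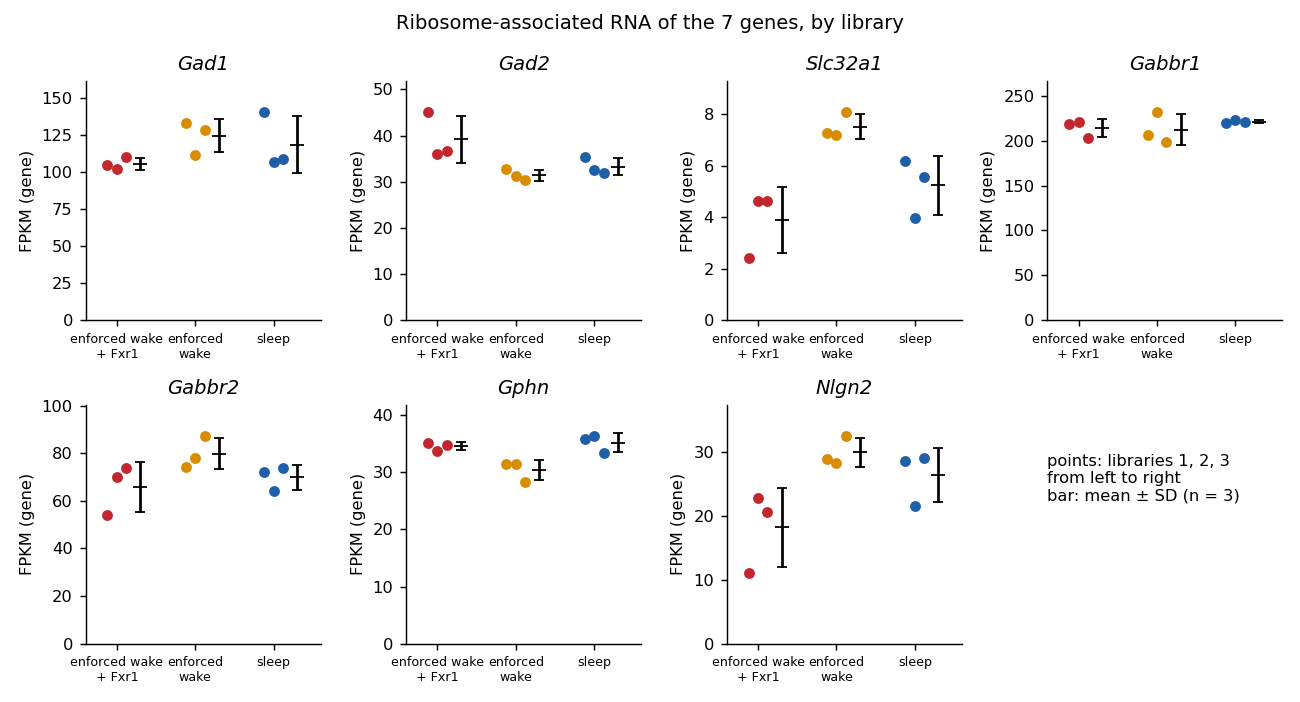
Gene level in FPKM (vertical axes, each from 0) of the 7 genes in each library, with enforced wake with Fxr1 in red, enforced wake in orange and sleep in blue; points are libraries, and the bar beside them is the mean ± SD of 3. Slc32a1 and Nlgn2 were lowest in the first library of enforced wake with Fxr1, at 2.40 and 11.1 FPKM, while Gabbr1 stayed between 198 and 232 FPKM in all libraries.

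All 7 genes were detected in every library and passed the filter of a mean of at least 0.5 FPKM. The mean level was highest for Gabbr1, followed in every group by Gad1 and Gabbr2. Slc32a1 was the least abundant, at less than 10 FPKM in each library. Tested with limma on log2(FPKM + 1), 1 of the 7 genes, Slc32a1, passed at an adjusted p under 0.05 between enforced wake and sleep, where 28.3% of all genes tested passed (15.7% higher and 12.7% lower in enforced wake). None of the 7 passed between enforced wake with Fxr1 and enforced wake, where 0.412% of genes did (0.0824% higher and 0.330% lower), nor between enforced wake with Fxr1 and sleep, where 7.79% did (3.20% higher and 4.58% lower). The groups did not overlap for 3, 6 and 1 of the 7 genes in enforced wake against sleep, enforced wake with Fxr1 against enforced wake and enforced wake with Fxr1 against sleep, beside 49.5%, 52.5% and 32.7% of all genes. At an unadjusted limma p under 0.05 the members numbered 2 (Slc32a1 and Gphn), 4 (Slc32a1, Nlgn2, Gad2 and Gad1) and 2 (Nlgn2 and Gad2) in these 3 comparisons, against 42.6%, 38.3% and 29.2% of all genes. The median log2 differences of the 7 genes were 0.08, -0.23 and -0.09, beside 0.00, -0.06 and -0.09 over all genes. In bulk RNA, fewer cells of a type and less RNA per cell cannot be told apart.

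GABA synthesis was represented by an abundant and a less abundant decarboxylase. Gad1 had 104, 102 and 110 FPKM in enforced wake with Fxr1, 133, 112 and 128 FPKM in enforced wake and 140, 106 and 109 FPKM in sleep. All libraries with Fxr1 lay below all of enforced wake, but the lowest sleep libraries lay within their range. The means were 105 ± 4.2, 124 ± 11 and 118 ± 19 FPKM in enforced wake with Fxr1, enforced wake and sleep (SD, n = 3 each). From high to low the order was enforced wake, sleep, enforced wake with Fxr1, and no neighbours in it differed past the test. The log2 difference was -0.23 ± 0.10 (SE) for enforced wake with Fxr1 minus enforced wake (limma adjusted p = 0.129) and 0.08 ± 0.12 for enforced wake minus sleep (limma adjusted p = 0.662).

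Gad2 (chromosome 2, 22622205 to 22693874, plus strand) had 45.1, 36.0 and 36.6 FPKM in enforced wake with Fxr1, 32.7, 31.3 and 30.3 FPKM in enforced wake and 35.3, 32.6 and 31.8 FPKM in sleep. The 3 libraries with Fxr1 were the highest of the 9, whereas enforced wake and sleep overlapped. The means were 39.2 ± 5.1, 31.4 ± 1.2 and 33.2 ± 1.9 FPKM in enforced wake with Fxr1, enforced wake and sleep (SD, n = 3 each). The log2 difference of enforced wake with Fxr1 was 0.30 ± 0.11 (SE) against enforced wake (limma adjusted p = 0.104) and 0.23 ± 0.10 against sleep (limma adjusted p = 0.164). Between enforced wake and sleep it was -0.08 ± 0.06 (limma adjusted p = 0.377), and 0.02 with the GC and length trend removed. Gad2 is in the second-lowest of the 5 groups by GC content, and with this trend removed its difference between enforced wake with Fxr1 and enforced wake was 0.13 (limma adjusted p = 0.281).

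The balance of the decarboxylases was taken as log2 of the Gad2 level over the Gad1 level within each library. It was -1.19, -1.47 and -1.56 in enforced wake with Fxr1, -1.99, -1.80 and -2.05 in enforced wake and -1.96, -1.68 and -1.74 in sleep. The ratio was higher in each library with Fxr1 than in any other library. Enforced wake with Fxr1 minus enforced wake gave a log2 difference of 0.54 (exact permutation test, 2-sided p = 0.1, the smallest that 3 against 3 libraries allow). Enforced wake minus sleep gave -0.16 (exact permutation test, 2-sided p = 0.2). With FPKM times transcript length in place of FPKM, an amount proportional to fragments that was added after the data were seen, the difference for Fxr1 was 0.29 and the libraries with Fxr1 were again the 3 highest.

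The Gad1 sum hides a change of transcript from library to library. The coding transcript ENSMUST00000094934 had 103, 99.7 and 40.0 FPKM in enforced wake with Fxr1, 91.1, 5.76 and 3.47 FPKM in enforced wake and 91.1, 92.8 and 91.8 FPKM in sleep. The non-coding ENSMUST00000140478 was listed at 0, 0 and 54.3 FPKM in enforced wake with Fxr1, at 0, 98.3 and 87.3 FPKM in enforced wake and at 0 in all 3 sleep libraries. Where the non-coding transcript was high the coding one was low, so in libraries 2 and 3 of enforced wake it took 88.0% and 68.0% of the Gad1 level. A shorter coding transcript, ENSMUST00000123330, had 0.476, 1.51 and 8.69 FPKM in enforced wake with Fxr1, 40.9, 2.57 and 35.9 FPKM in enforced wake and 45.8, 7.33 and 10.3 FPKM in sleep. Its 1138 bases share 812 with the full transcript, and because FPKM divide by length, fragments given to it raise the gene's sum. Measured as FPKM times length, Gad1 differed by -0.04 between enforced wake and sleep and by 0.01 between enforced wake with Fxr1 and enforced wake on the log2 scale, so the lower Gad1 sum with Fxr1 was absent on this scale. No transcript of the 7 genes passed a limma test of transcripts, in which 3.62% of all transcripts passed between enforced wake and sleep, 0.895% between enforced wake with Fxr1 and enforced wake and 0.818% between enforced wake with Fxr1 and sleep. At an unadjusted limma p under 0.05 there were 2 of 21, 3 of 22 and 2 of 21 of their transcripts, beside 22.3%, 19.7% and 15.2% of all.

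**Figure D2:**
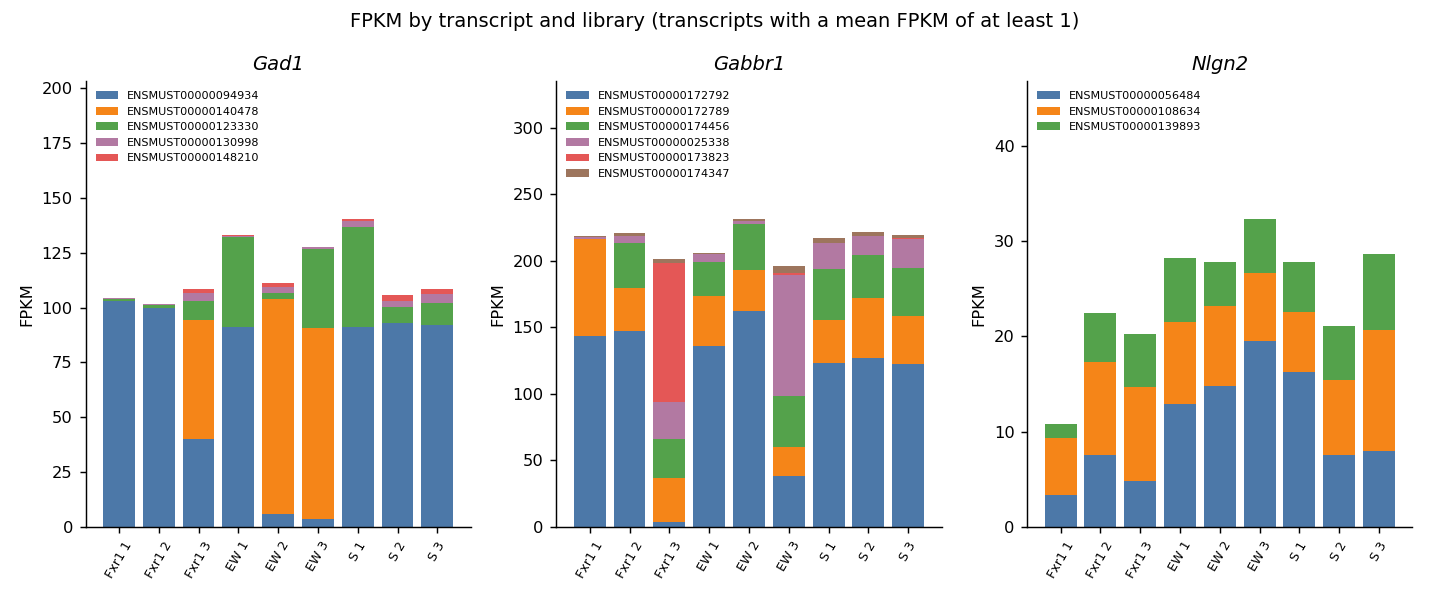
FPKM (vertical axes) in each of the 9 libraries (Fxr1, enforced wake with Fxr1; EW, enforced wake; S, sleep), stacked by transcript for Gad1, Gabbr1 and Nlgn2. Gad1 was given mainly to the non-coding ENSMUST00000140478 in EW 2 and EW 3, and Gabbr1 mainly to ENSMUST00000173823 in Fxr1 3, while the Gabbr1 sum stayed between 198 and 232 FPKM.

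Slc32a1 was the gene that differed between enforced wake and sleep. This transporter gene (chromosome 2, 158610767 to 158615748, plus strand) has 1 listed transcript, so its level does not depend on the choice of transcript. It had 2.40, 4.63 and 4.62 FPKM in enforced wake with Fxr1, 7.29, 7.18 and 8.08 FPKM in enforced wake and 6.19, 3.97 and 5.56 FPKM in sleep. All enforced wake libraries were above all others, and sleep and enforced wake with Fxr1 overlapped. The means were 3.88 ± 1.3, 7.52 ± 0.49 and 5.24 ± 1.1 FPKM in enforced wake with Fxr1, enforced wake and sleep (SD, n = 3 each). Slc32a1 rose in enforced wake against sleep by 0.46 ± 0.14 (SE) on the log2 scale (limma adjusted p = 0.0490).

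That call stood at the threshold. Without any 1 of the enforced wake libraries 1, 2 or 3 the limma adjusted p was 0.101, 0.102 and 0.142, and without sleep library 3 it was 0.0773, with differences of 0.42 to 0.51. Without sleep library 2 the difference was 0.31 (limma adjusted p = 0.0481). Over all fits with a library left out, sleep library 1 included, the difference ran from 0.31 to 0.57. Of 15 alternative settings 5 passed, with limma adjusted p from 0.0333 to 0.895 over all of them. With the GC and length trend removed the difference was 0.02 (limma adjusted p = 0.895), and its values were then 2.68, 2.62 and 2.64 in enforced wake and 2.73, 2.52 and 2.65 in sleep on the log2 scale. Enforced wake with Fxr1 minus enforced wake was -0.84 ± 0.21 (limma adjusted p = 0.0878) as deposited and 0.03 with the trend removed. Without the first library of enforced wake with Fxr1 Slc32a1 fell by 0.60 (limma adjusted p = 0.00892), in a fit in which 3316 genes passed instead of 60. Against sleep the difference of enforced wake with Fxr1 was -0.38 ± 0.21 (limma adjusted p = 0.259), and 0.05 with the trend removed.

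The GABA-B receptor subunits did not pass in any of the 3 comparisons. Gabbr1 had 219, 222 and 203 FPKM in enforced wake with Fxr1, 207, 232 and 198 FPKM in enforced wake and 220, 223 and 221 FPKM in sleep. Its group ranges overlapped, and the group means were 214 ± 10, 213 ± 17 and 221 ± 1.6 FPKM in enforced wake with Fxr1, enforced wake and sleep (SD, n = 3 each). The log2 difference was -0.06 ± 0.07 (SE) for enforced wake minus sleep (limma adjusted p = 0.530) and 0.02 ± 0.10 for enforced wake with Fxr1 minus enforced wake (limma adjusted p = 0.914). With the GC and length trend removed, these were -0.22 (limma adjusted p = 0.0908) and 0.31 (limma adjusted p = 0.238).

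Behind the steady Gabbr1 sum, single libraries were given other transcripts. The GABA-B1b form ENSMUST00000172792 had 143, 147 and 3.73 FPKM in enforced wake with Fxr1, 136, 162 and 38.1 FPKM in enforced wake and 123, 127 and 122 FPKM in sleep. The full GABA-B1a form ENSMUST00000025338 had 1.43, 5.58 and 28.0 FPKM in enforced wake with Fxr1, 5.74, 2.77 and 90.7 FPKM in enforced wake and 19.7, 14.5 and 21.8 FPKM in sleep. The 1b form was thus the larger in 7 of 9 libraries, the exceptions being library 3 of enforced wake with Fxr1 and library 3 of enforced wake. In library 3 of enforced wake with Fxr1, 104.7 FPKM were given to ENSMUST00000173823, a transcript annotated for nonsense-mediated decay with the 1a start, which had at most 1.75 FPKM in every other library. The authors' deposited table gives this transcript a fold of 69.9 with Fxr1 over enforced wake, with p = 0.00848 and q = 0.302, and the GABA-B1b form a fold of 0.0449 with p = 0.0133 and q = 0.311. In both cases library 3 of that group was the one far from the other 2. In the limma fit of transcripts their log2 differences were smaller, at 1.68 and -1.04 (limma adjusted p over transcripts = 0.632 and 0.706). Short transcripts with the 1a start, ENSMUST00000172789 and ENSMUST00000174456, of 229 codons each, had 21.5 to 73.1 FPKM and 0 to 38.9 FPKM. The second of them was listed at 0 in the first library with Fxr1, in which the first had its highest value.

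Gabbr2 (chromosome 4, 46662305 to 46991873, minus strand) was carried by a single coding transcript with 98.4% to 99.1% of its level. It had 54.04, 69.96 and 73.6 FPKM in enforced wake with Fxr1, 74.4, 77.8 and 87.2 FPKM in enforced wake and 72.1, 63.9 and 73.7 FPKM in sleep. The enforced wake libraries were the 3 highest, and enforced wake with Fxr1 and sleep overlapped. The means were 65.9 ± 10, 79.8 ± 6.7 and 69.9 ± 5.2 FPKM in enforced wake with Fxr1, enforced wake and sleep (SD, n = 3 each). The log2 difference was 0.19 ± 0.08 (SE) for enforced wake minus sleep (limma adjusted p = 0.135) and -0.28 ± 0.14 for enforced wake with Fxr1 minus enforced wake (limma adjusted p = 0.173). With the GC and length trend removed the signs were the other way round, at -0.11 and 0.25 (limma adjusted p = 0.122 and 0.141).

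Of the scaffold genes, gephyrin was the steadier. Gphn (chromosome 12, 78226379 to 78684772, plus strand) had 35.2, 33.8 and 34.8 FPKM in enforced wake with Fxr1, 31.4, 31.5 and 28.3 FPKM in enforced wake and 35.8, 36.4 and 33.4 FPKM in sleep. Here the enforced wake libraries were the 3 lowest. The means were 34.6 ± 0.72, 30.4 ± 1.8 and 35.2 ± 1.6 FPKM in enforced wake with Fxr1, enforced wake and sleep (SD, n = 3 each). The log2 difference of enforced wake minus sleep was -0.21 ± 0.07 (SE; limma adjusted p = 0.0580), and -0.17 (limma adjusted p = 0.0868) with the GC and length trend removed. Enforced wake with Fxr1 minus enforced wake was 0.18 ± 0.08 (limma adjusted p = 0.151) and also 0.18 with the trend removed, and enforced wake with Fxr1 minus sleep was -0.02 ± 0.07 (limma adjusted p = 0.839), and 0.01 with the trend removed. Gphn kept the sign of its difference in 15 of 15 alternative settings in each of the first 2 of these comparisons. Slc32a1 also did so in the first and Gad2 in the second. Some of these settings, such as another filter, leave the difference itself unchanged.

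Gphn was split between a pair of coding transcripts of 772 and 769 codons that share their start. The first, ENSMUST00000110388, had 17.8, 20.3 and 19.1 FPKM in enforced wake with Fxr1, 19.0, 16.5 and 14.9 FPKM in enforced wake and 21.7, 21.8 and 20.2 FPKM in sleep. The second, ENSMUST00000052472, had 17.4, 13.5 and 15.6 FPKM in enforced wake with Fxr1, 12.4, 15.0 and 13.4 FPKM in enforced wake and 14.1, 14.6 and 13.1 FPKM in sleep. For enforced wake minus sleep the first differed by -0.33 ± 0.10 (limma adjusted p over transcripts = 0.133) with no overlap of the groups, and the second by -0.04 ± 0.09. Whether the transcripts differ from each other in this was not tested.

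Nlgn2 (chromosome 11, 69823122 to 69837784, minus strand) had the widest spread of the 7 genes beside Slc32a1. It had 11.1, 22.8 and 20.6 FPKM in enforced wake with Fxr1, 28.9, 28.3 and 32.4 FPKM in enforced wake and 28.5, 21.5 and 29.1 FPKM in sleep. All libraries with Fxr1 lay below all enforced wake libraries, and the first was the lowest of all. The means were 18.1 ± 6.2, 29.9 ± 2.3 and 26.3 ± 4.2 FPKM in enforced wake with Fxr1, enforced wake and sleep (SD, n = 3 each). The log2 difference of enforced wake with Fxr1 was -0.75 ± 0.25 (SE) against enforced wake (limma adjusted p = 0.0976) and -0.56 ± 0.24 against sleep (limma adjusted p = 0.162). Without the first library with Fxr1 Nlgn2 fell by 0.44 against enforced wake (limma adjusted p = 0.0210), in a fit in which 2488 of 14554 genes fell.

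The Nlgn2 difference between enforced wake and sleep had opposite signs before and after removal of the GC and length trend. It was 0.19 ± 0.12 (limma adjusted p = 0.294) as deposited and -0.28 (limma adjusted p = 0.0163) with the GC and length trend removed, where the values were 4.55, 4.48 and 4.53 in enforced wake and 4.79, 4.72 and 4.88 in sleep on the log2 scale. For enforced wake with Fxr1 minus enforced wake the difference with the trend removed was 0.07 (limma adjusted p = 0.650). Among its transcripts, ENSMUST00000056484 had 3.29, 7.58 and 4.81 FPKM in enforced wake with Fxr1, 12.9, 14.8 and 19.5 FPKM in enforced wake and 16.3, 7.52 and 7.92 FPKM in sleep. It differed by -1.47 ± 0.30 between enforced wake with Fxr1 and enforced wake (limma adjusted p over transcripts = 0.148). ENSMUST00000108634, with the same 836 codons and another 5′ end, had 6.06, 9.77 and 9.90 FPKM in enforced wake with Fxr1, 8.60, 8.37 and 7.15 FPKM in enforced wake and 6.25, 7.94 and 12.8 FPKM in sleep, a difference of 0.06 ± 0.21. They share 4831 bases, so reads can be moved between them by the estimate.

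**Figure D3:**
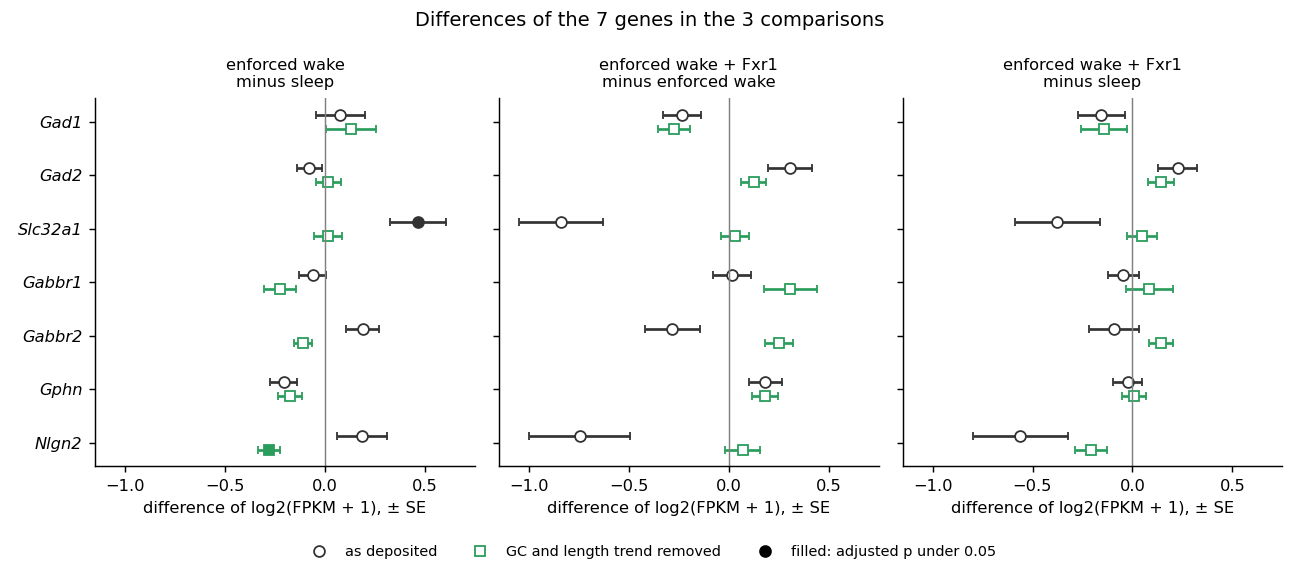
Difference of log2(FPKM + 1) ± SE (horizontal axes) of the 7 genes in enforced wake minus sleep (left), enforced wake with Fxr1 minus enforced wake (middle) and enforced wake with Fxr1 minus sleep (right), as deposited (circles) and with the GC and length trend removed (green squares). Filled symbols passed at a limma adjusted p under 0.05: Slc32a1 as deposited (0.46) and Nlgn2 with the trend removed (-0.28), both in enforced wake minus sleep.

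Set beside genes of their own GC content, some of the 7 genes lay on the same side of 0 as the median and some did not. The members in the highest of the 5 groups by GC content, Slc32a1, Nlgn2 and Gabbr2, had log2 differences of 0.46, 0.19 and 0.19 in enforced wake minus sleep, where that group had a median of 0.28, and of -0.84, -0.75 and -0.28 in enforced wake with Fxr1 minus enforced wake, where it had -0.62. The members in the second-lowest group, Gad1 and Gad2, had 0.08 and -0.08 beside a median of -0.10, and -0.23 and 0.30 beside 0.13. Gphn, in the middle group, had -0.21 beside -0.01 and 0.18 beside -0.04, and Gabbr1, in the second-highest, had -0.06 beside 0.10 and 0.02 beside -0.29. By this grouping Gad1 and Gabbr1 were on the other side of 0 from the median of their group in both comparisons, and Gphn in the second. The longest Gad1 transcript, ENSMUST00000155979, which sets its group and its trend removal, is a retained intron with a mean of 0.266 FPKM. The coding sequence of ENSMUST00000094934 has a GC content of 50.3%. The groups were cut on whole transcripts, so this value does not place Gad1 in a group. For Gad2 the coding sequence has 49.2% and the longest transcript 44.1%. Beside the medians of the middle group Gad1 would be on the other side of 0 only in the first comparison. What part of these differences comes from GC content or length was not tested.

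**Figure D4:**
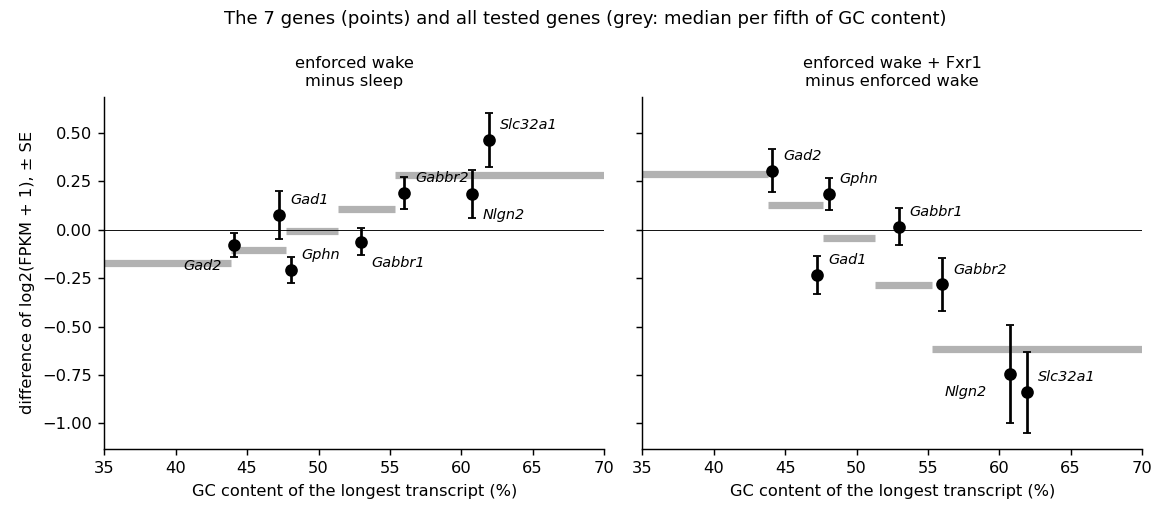
Difference of log2(FPKM + 1) ± SE (vertical axis) of the 7 genes (black) against the GC content of their longest transcript in % (horizontal axis), with the median of all tested genes in each of 5 equal groups by GC content in grey. In enforced wake minus sleep (left) the medians run upward from -0.17 to 0.28, and in enforced wake with Fxr1 minus enforced wake (right) downward from 0.29 to -0.62.

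Of 7 tested genes that break down, take up or recycle GABA, none rose and 2 fell in enforced wake against sleep, a share near the 28.3% of all genes that passed. Among the 2 was Aldh5a1, which oxidises the product of GABA breakdown. Aldh5a1 had 14.0, 13.7 and 14.3 FPKM in enforced wake with Fxr1, 13.6, 12.955 and 13.9 FPKM in enforced wake and 16.3, 15.9 and 15.8 FPKM in sleep. The sleep libraries were the 3 highest. It fell by 0.23 in enforced wake against sleep (limma adjusted p = 0.0250), and also passed with the GC and length trend removed, at -0.25 (limma adjusted p = 0.0127). Between enforced wake with Fxr1 and enforced wake none of the 7 passed and 3 had an unadjusted limma p under 0.05, beside 38.3% of all genes. There Slc6a11, an uptake transporter mainly of astrocytes, had 5.35, 6.54 and 6.98 FPKM in enforced wake with Fxr1, 8.37, 9.003 and 10.2 FPKM in enforced wake and 9.81, 8.08 and 10.1 FPKM in sleep. Against sleep it fell by 0.51 with Fxr1 (limma adjusted p = 0.0443), and by 0.41 (limma adjusted p = 0.0598) without the first library with Fxr1.

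Among 12 partners and effectors of GABA-B receptors, 1 rose and 2 fell in enforced wake against sleep, again near the 28.3% of all genes. Kcnj3 and Kcnj6 encode subunits of the potassium channels that GABA-B receptors open. Kcnj3 fell to 14.2, 13.2 and 13.4 FPKM in enforced wake, against 20.3, 18.7 and 17.97 FPKM in sleep, a log2 difference of -0.45 ± 0.07 (limma adjusted p = 0.00683). Kcnj6 rose to 23.96, 23.9 and 26.4 FPKM in enforced wake, against 19.6, 19.5 and 20.5 FPKM in sleep, a log2 difference of 0.30 ± 0.06 (limma adjusted p = 0.0164). Neither gene's groups overlapped, and both calls were also made with the GC and length trend removed, at -0.34 and 0.33. Gnai1, an inhibitory G protein subunit, fell by 0.41 (limma adjusted p = 0.00963). None of the 12 passed between enforced wake with Fxr1 and enforced wake, where 7 had an unadjusted limma p under 0.05 beside 38.3% of all genes. Kcnj3 and Kcnj6 had differences of 0.14 and -0.10 there, and of -0.05 and -0.10 with the trend removed.

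Of 21 tested partners of gephyrin and neuroligin 2, 6 rose and 2 fell in enforced wake against sleep, beside 15.7% and 12.7% of all genes. Igsf9b, an adhesion protein of inhibitory synapses, had 8.96, 9.55 and 11.1 FPKM in enforced wake, against 3.65, 1.82 and 3.32 FPKM in sleep. The groups were well apart, with a log2 difference of 1.496 ± 0.19 (limma adjusted p = 0.00492), and of 1.08 (limma adjusted p = 0.00331) with the GC and length trend removed. In enforced wake with Fxr1 Igsf9b had 2.19, 4.87 and 5.84 FPKM, a difference of -1.10 from enforced wake (limma adjusted p = 0.0878). Nrxn2, a presynaptic neurexin, rose by 0.88 (limma adjusted p = 0.00723), and Slitrk3, a postsynaptic adhesion protein of inhibitory synapses, fell by 0.34 (limma adjusted p = 0.00762). With the trend removed, 4 of the 21 rose and 4 fell, Igsf9b and Nrxn2 still among the first and Slitrk3 among the second. None of the 21 passed between enforced wake with Fxr1 and enforced wake, where 8 had an unadjusted limma p under 0.05 beside 38.3% of all genes. Without the first library with Fxr1, 2 of them rose and 3 fell there, beside 22.8% of all genes that passed in either direction in that fit, and Igsf9b fell by 0.77 and Nrxn2 by 0.81. In enforced wake with Fxr1 against sleep 2 of the 21 rose, beside 3.20% of all genes. They were Mdga1, which binds neuroligin 2, and Plcl1, an inositol phosphate-binding protein that takes part in GABA-A receptor traffic. They rose by 1.10 and 0.36 (limma adjusted p = 0.0424 and 0.0457). Mdga1 also rose in enforced wake against sleep, by 0.88 (limma adjusted p = 0.0384). From enforced wake to enforced wake with Fxr1 the differences of Mdga1 and Plcl1 were 0.21 and 0.25 (limma adjusted p = 0.449 and 0.131).

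Of 4 genes of chloride transport, which sets the direction of GABA-A currents, Slc12a5, the neuronal chloride exporter KCC2, rose in enforced wake against sleep. It had 42.8, 64.4 and 67.0 FPKM in enforced wake with Fxr1, 83.8, 101.8 and 91.3 FPKM in enforced wake and 76.3, 71.9 and 68.2 FPKM in sleep. The enforced wake libraries were above all others. The log2 difference was 0.35 ± 0.08 for enforced wake minus sleep (limma adjusted p = 0.0259) and -0.68 ± 0.19 for enforced wake with Fxr1 minus enforced wake (limma adjusted p = 0.0880). With the GC and length trend removed these were -0.04 and 0.01, neither passing. Without the first library with Fxr1, Slc12a5 fell by 0.48 against enforced wake (limma adjusted p = 0.0205), in a fit in which 2488 of 14554 genes fell.

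The subunits of GABA-A receptors, the channels that gephyrin anchors, fell more often than they rose in enforced wake. Of 12 subunits 8 fell and none rose in enforced wake against sleep, beside 12.7% and 15.7% of all genes, with a median of -0.26; with the GC and length trend removed 4 fell, with a median of -0.16. Gabrb2 fell to 82.2, 82.5 and 79.8 FPKM in enforced wake, against 105, 116 and 111 FPKM in sleep, a log2 difference of -0.44 ± 0.06 (limma adjusted p = 0.00504). With Fxr1 it had 118, 105 and 104 FPKM, a difference from enforced wake of 0.41 (limma adjusted p = 0.0878). None of the 12 passed between enforced wake with Fxr1 and enforced wake, where 10 had an unadjusted limma p under 0.05, beside 38.3% of all genes, and the median was 0.39. Without the first library with Fxr1, 8 rose and 1 fell in that comparison, in a fit in which 828 of 14554 genes rose and 2488 fell, and with the trend removed none passed and the median was 0.06.

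**Figure D5:**
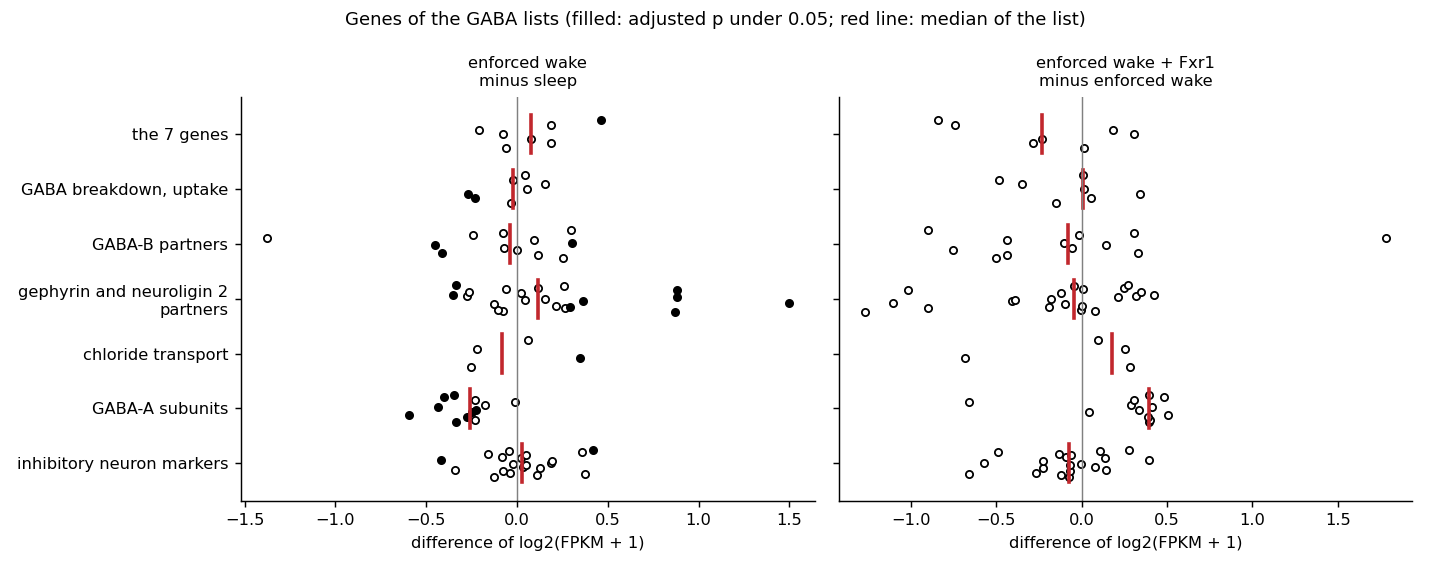
Difference of log2(FPKM + 1) (horizontal axes) of each tested gene in the GABA lists and in the inhibitory neuron markers, in enforced wake minus sleep (left) and enforced wake with Fxr1 minus enforced wake (right); filled circles passed at a limma adjusted p under 0.05 and red lines are list medians. The medians of the 7 genes were 0.08 and -0.23, and those of the GABA-A subunits -0.26 and 0.39.

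Markers of cell types were counted beside these results. The summed level of 20 inhibitory neuron markers was 418 to 469 FPKM in enforced wake with Fxr1, 471 to 487 FPKM in enforced wake and 419 to 458 FPKM in sleep, and so highest in enforced wake. The sum over all transcripts was highest there too, at 309832 to 327390, 353448 to 358936 and 330697 to 337117 FPKM in the same groups. The marker sums in this paragraph were not corrected for it. Among the abundant ones, Sst averaged 91.8, 129 and 101 FPKM, Npy 74.4, 86.7 and 75.8 FPKM and Vip 53.2, 43.4 and 32.2 FPKM in enforced wake with Fxr1, enforced wake and sleep. In the same groups Lamp5 averaged 72.4, 75.6 and 72.9 FPKM, and Pvalb, highest in sleep, 39.7, 42.25 and 44.9 FPKM. The median log2 difference of the 20 markers was 0.03 in enforced wake minus sleep, with 9 of 20 below 0. Of these 20 markers 1, Vip, rose and 1, Nxph1, fell in enforced wake against sleep, by 0.42 each (limma adjusted p = 0.0120 and 0.0187). Of all genes 15.7% rose and 12.7% fell there. The summed level of 15 excitatory neuron markers was 678 to 877, 941 to 1093 and 826 to 931 FPKM in enforced wake with Fxr1, enforced wake and sleep, and that of 12 astrocyte markers was 525 to 605, 662 to 792 and 582 to 649 FPKM in the same groups. For 10 oligodendrocyte markers it was 131 to 144 FPKM in enforced wake with Fxr1, 147 to 169 FPKM in enforced wake and 105 to 161 FPKM in sleep. The astrocyte marker Gfap fell by 1.62 with Fxr1 against enforced wake (limma adjusted p = 0.0245). None of the 12 astrocyte, 10 oligodendrocyte, 9 microglial or 9 endothelial and mural markers was at 0 in any library, and their summed levels in the last 2 lists were 31.5 to 48.6 FPKM and 18.9 to 26.4 FPKM. The part of cell composition in the differences of the 7 genes was not tested.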

How the data were processed

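RiboTag-bound RNA of mPFC neurons was sequenced from stranded total RNA libraries, per the labels' protocols. The authors deposited FPKM per transcript for 9 libraries in 2 tables, per the file headers, each with a linear fold, a p-value and a q-value per transcript. The submitters' processing notes name HISAT2 2.1.0, SAMtools 1.9, StringTie 1.3.4d and GRCm38, and no tool is named there for the deposited fold, p-value and q-value. By the FPKM columns, enforced wake is the denominator of the deposited fold in both tables, so that of sleep runs opposite to the differences given here. FPKM are relative to each library's total, and the estimate can assign shared exons to different transcripts of a gene.

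Transcript FPKM were summed by gene symbol. The test was limma 3.58.1 (intensity trend, 2-sided, R 4.3.3) on log2(FPKM + 1), for genes or transcripts with a mean of at least 0.5 FPKM, with Benjamini-Hochberg adjustment over all of them and a threshold of 0.05. Differences on this scale understate changes of low genes. The comparisons with the enforced wake group each used their own 6 libraries, and that of Fxr1 with sleep used all 9. The test was also run on simulated data with independent noise of equal spread in all groups. That run had no outlying library, so it does not cover data such as the first library with Fxr1. The tables hold no read totals, so depth was inferred for single-transcript genes from the lowest values of FPKM times length. Positions, transcript types and sequences come from GENCODE M21 (GRCm38), which held 47224 of 47729 gene identifiers. Gad1 and Slc32a1 overlap antisense genes with mean levels of 0.0253 and 0.00681 FPKM.

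The trend removal fitted each library's deviations with splines (5 degrees of freedom each) of GC content and log length and subtracted them, so it also removes any real change that follows these properties. GC content was known for 99.8% of genes tested. The 7 genes and all lists were chosen with earlier results of these data known. Named are the 7 genes, their transcripts with a mean of at least 1 FPKM, up to 3 genes of each pathway list with the smallest p in each comparison, defining cell type markers, Fxr1, and for each of the 7 genes the 2 protein-coding genes nearest in profile. Alternatives were another pseudocount, other filters, scaling to the median of protein-coding genes, trend removal, a replicate block, other libraries in the fit and leaving out each library. FPKM times length was added after the data were seen, as were the list counts with the trend removed or without the first library with Fxr1. Some genes of the lists are counted but not reported here by name.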

Additional observations from a re-analysis of the deposited data

How the results depend on the processing

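For the 7 genes over 3 comparisons, 336 values were recomputed under alternatives: 320 kept their side of the threshold, 4 passed that had not, 10 no longer passed and 2 reversed past the threshold, both for Nlgn2. With the GC and length trend removed, Nlgn2 in enforced wake against sleep was -0.28 (limma adjusted p = 0.0163), and with that correction and a replicate block also -0.28 (limma adjusted p = 0.0372). The number of the 7 genes that passed in enforced wake against sleep, 1 as reported, was 0 with a pseudocount of 0.1, with no filter, with the replicate block and with all 9 libraries in the fit (limma adjusted p of Slc32a1 0.0521, 0.106, 0.0521 and 0.188), 2 with FPKM times length (Slc32a1 at 0.51 and Gphn at -0.21, limma adjusted p = 0.0458 and 0.0446), and 0 to 1 with libraries left out. In enforced wake with Fxr1 against enforced wake it was 0 as reported, 1 with all 9 libraries in the fit (Slc32a1 at -0.84, limma adjusted p = 0.0375), and 0 to 2 with libraries left out.

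Over all genes, 4156 passed in enforced wake against sleep, 2241 with the block and trend removal, 1398 with all 9 libraries in the fit and 1822 to 3631 with libraries left out. In enforced wake with Fxr1 against enforced wake 60 passed (12 higher and 48 lower), 29 with a pseudocount of 0.1, 4 with no filter, 37 with a filter at 1 FPKM, 1 with the block, 1 with block and trend removal, 3366 with all 9 libraries and 2 to 3316 with libraries left out, the highest without the first library with Fxr1. In enforced wake with Fxr1 against sleep 1138 passed (468 higher and 670 lower), 1871 with the trend removed (1051 and 820), 372 with the block, 183 on its own 6 libraries and 248 to 1440 with libraries left out. The cause of these moves was not tested. For protein-coding genes the median log2 ratio to their own mean over the libraries was taken. It was -0.11 in the first library with Fxr1 and -0.05 to 0.03 in the others. Scaling to it gave 14 higher and 32 lower for Fxr1 against enforced wake and 602 higher and 454 lower against sleep. The log2 ratio of Gad2 to Gad1 reversed when only the most abundant transcript of each gene was used, to 2.64 for enforced wake minus sleep and -2.13 for Fxr1 minus enforced wake, since Gad1 was given to different transcripts.

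Correlations of same-numbered deviations were -0.08, 0.05 and 0.10 between enforced wake and sleep, 0.15, -0.01 and 0.23 between Fxr1 and enforced wake, and -0.28, -0.36 and 0.22 between Fxr1 and sleep. Those of differently numbered libraries ran from -0.14 to 0.10, from -0.21 to 0.10 and from -0.44 to 0.51 in the same order. Deviations from means of 3 libraries cannot decide whether replicate numbers pair the samples. With 3 libraries a group, SEs for Fxr1 minus enforced wake ranged from 0.08 for Gphn to 0.25 for Nlgn2, which limits what differences could be detected.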

Other observations

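Among 8207 protein-coding genes with a mean of at least 5 FPKM, the genes nearest in profile over the 9 libraries were found by the root mean square difference of centred log2 levels. The likeness is a description over 9 libraries that share their groups, their depth and the GC trend. Nearest to Slc32a1 were Ap2a1 and Calcoco1, at 0.04 and 0.05, where Slc32a1 itself varied by 0.42. Ap2a1, a subunit of the AP-2 endocytic adaptor, averaged 30.7 FPKM in enforced wake with Fxr1, 55.4 FPKM in enforced wake and 40.6 FPKM in sleep. Nearest to Nlgn2 were Phyhip and Nomo1, at 0.06 and 0.07, where Nlgn2 varied by 0.42. Gabbr2 was nearest to Adcy1, a calcium-stimulated adenylyl cyclase, and Fam234b, both at 0.04, and Gphn to Lrpprc and Nsrp1, both at 0.03. Gad2 was nearest to Rpa3 and Upf3b, both at 0.04, and Gabbr1 to Racgap1 and Tiprl, both at 0.04 where Gabbr1 itself varied by 0.07. Gad1 was nearest to Eif4g1 and Zfp740, at 0.06 and 0.08. No member was among the 2 genes nearest to another.

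Levels of 3 genes that mark interneuron classes were taken by library. Vip had 64.1, 50.1 and 45.5 FPKM in enforced wake with Fxr1, 40.6, 44.8 and 44.8 FPKM in enforced wake and 35.1, 31.6 and 29.9 FPKM in sleep. No groups overlapped, and against sleep Vip rose by 0.70 with Fxr1 (limma adjusted p = 0.0195) and by 0.42 in enforced wake (limma adjusted p = 0.0120), and by 0.67 and 0.66 with the GC and length trend removed. Between enforced wake with Fxr1 and enforced wake Vip differed by 0.28 and did not pass (limma adjusted p = 0.182). In that comparison the groups did not overlap for 52.5% of all genes. Sst had 83.8, 100.5 and 91.0 FPKM in enforced wake with Fxr1, 132, 119 and 136 FPKM in enforced wake and 113, 85.7 and 104 FPKM in sleep, with differences of 0.36 for enforced wake minus sleep (limma adjusted p = 0.0518) and -0.49 for Fxr1 minus enforced wake (limma adjusted p = 0.0878), and of 0.09 and 0.14 with the trend removed. Without the first library with Fxr1, Sst fell by 0.43 against enforced wake (limma adjusted p = 0.0219), in a fit in which 2488 of 14554 genes fell. Pvalb, of the third large interneuron class, had 36.0 to 44.9 FPKM in enforced wake with Fxr1, 41.4 to 43.7 FPKM in enforced wake and 42.4 to 48.2 FPKM in sleep, and passed in none of the 3 comparisons.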
